A study of Mus musculus with 10 samples.

Results

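DMDA-PatA and harringtonine stop translation at neighbouring steps, and the comparison here asks which coding sequences and 5' UTRs kept more or fewer ribosome footprints under one drug than under the other. Members were the coding transcripts whose mean control value on the ORF was at least 100, which left 8532 of the 14534 coding transcripts and of the 15269 transcripts listed. Of these, 8366 had a value for the 5' UTR.

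The cells were CGR8, a feeder-free mouse embryonic stem cell line of strain 129, kept in medium with serum and leukemia inhibitory factor. Libraries were made after 10 min with 1 µM DMDA-PatA (labelled pateamineA), after 10 min with 2 µg/ml harringtonine and from control cells without drug, with 2 libraries each. A further 2 libraries with 0.2 mg/ml puromycin for 20 min entered the estimate of the spread, and 2 transcriptome libraries of untreated cells were used for 1 description. DMSO was equal in all samples, and cycloheximide was added only after the cells had been cooled. All libraries come from 1 cell line. The study calls its replicates biological, the labels do not say how the cultures were kept apart, and p-values measure the spread between these libraries.

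Footprints are the mRNA fragments that a ribosome shields from RNase. During initiation the helicase eIF4A, part of the cap-binding complex eIF4F, opens the 5' UTR so that the small ribosomal subunit can load and scan. DMDA-PatA, a simplified form of the sponge product pateamine A, locks eIF4A on RNA and blocks this loading. Harringtonine acts on ribosomes that have already joined at a start codon and hinders their first steps of elongation, while ribosomes further along finish the coding sequence and leave. Both drugs thus empty coding sequences, but harringtonine is known for the ribosomes that it holds at start codons. The study describes it as only partly selective, and not specific, for initiation sites.

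Every deposited footprint value was a whole number of reads times a factor of its library, so read numbers were recovered. Over the ORFs of the members the control libraries held 8941845 and 10426730 reads, the harringtonine libraries 1891464 and 1624558, and the DMDA-PatA libraries 599414 and 726325. A typical member had 419 and 488 control reads, 73 and 62 with harringtonine and 29 and 33 with DMDA-PatA (medians). These medians are the yardstick for the read numbers given below. Under 10 reads were left on 14.7% and 13.1% of the members with DMDA-PatA and on 3.01% and 4.63% with harringtonine, so depth limits the DMDA-PatA side more. On the log2 scale, replicates correlated across members at 0.990 for control, 0.965 for harringtonine and 0.942 for DMDA-PatA (Pearson, a description across genes of 1 pair of libraries).

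The stem cell label was checked in the control libraries. Pou5f1, Sox2, Nanog, Zfp42 and Esrrb, transcription factors of embryonic stem cells, carried 3222 to 8523 normalized footprints per library, and the Nodal coreceptor Tdgf1 211 and 231. Of 11 listed markers of germ layers and fibroblasts with a value, Sox17 and Sox1 were at most at 8.25, and Gata4, Gata6, Pax6 and Thy1 lay between 29.0 and 131. The mesoderm markers T, Mixl1 and Hand1 were at or above the level of Tdgf1, with 237 to 1144, Nes stood at 1816 and 1740, and Col1a1, a collagen chain, at 16909 and 12975. Their part in the results was not tested.

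To remove the median difference, each library was scaled so that the median member stood at the control level. The scaled log2 difference is DMDA-PatA minus harringtonine. A value above 0 says that a gene kept a larger part of its control footprints with DMDA-PatA than with harringtonine, relative to the median member, and not that it kept more footprints. On the deposited spike-in scale the median difference was -1.35. The study uses the spike-in factors of the 2 drugs in exchanged order elsewhere, and which order holds was not settled here. The scaled differences do not depend on these factors.

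Tests were run in edgeR over all features (quasi-likelihood, p adjusted by Benjamini-Hochberg). With an adjusted p under 0.05, 1667 of 8532 coding sequences (19.5%) were higher with DMDA-PatA and 1990 (23.3%) were lower. Over all 12499 features tested these shares were 14.8% and 18.7%. On the deposited scale, with the median not removed, the split was 46 higher and 5098 lower. With the deposited factors and 1 common shift that removed the median difference, it was 615 and 918. Over the members the scaled difference ran from -1.87 at the 5th percentile to 1.49 at the 95th, that is from 0.273 to 2.80 fold. Its standard deviation over members was 1.03, and the same-numbered library pairs differed with a standard deviation of 0.718.

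**Figure D1:**
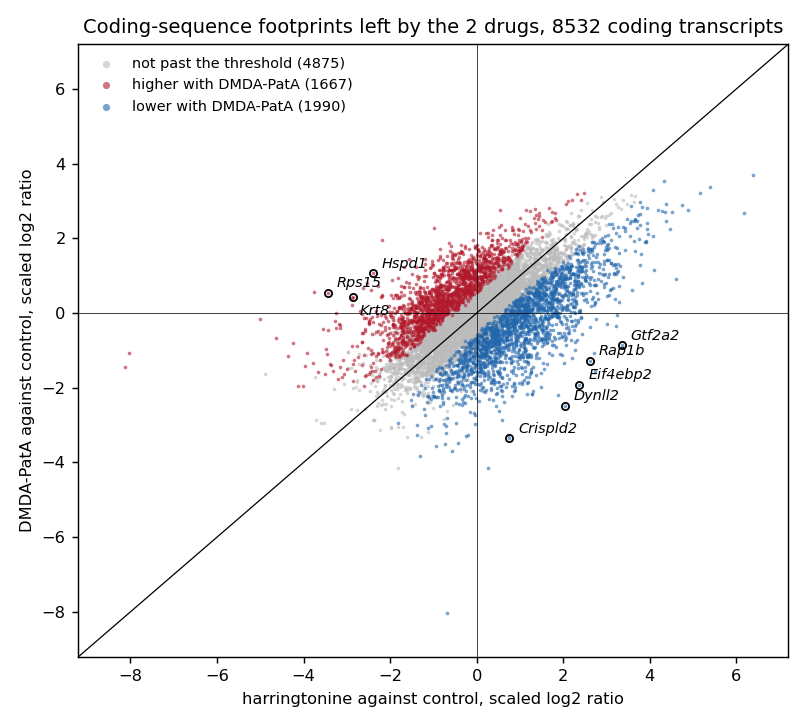
Each point is 1 of 8532 coding transcripts, with the scaled log2 ratio of harringtonine to control on the x axis and of DMDA-PatA to control on the y axis, where 0 is the median member. The 1667 coding sequences higher with DMDA-PatA lie above the diagonal, the 1990 lower ones below it, and circles mark genes described in the text.

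Close to the cutoff on control footprints a smaller share was called than over all members, on either side of it. Among 225 coding transcripts with a mean control value from 90 to 100, just outside the cutoff, 22.2% were called in either direction, and among 246 from 100 to 110, just inside, 24.0% were. Their median differences were -0.07 and -0.00323.

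The bases around the start codon are shown for the leading coding sequences, because the base after the start codon differed in frequency between the called groups. The reads are totals per region, so footprints at the start codon itself could not be told apart. Each line gives 12 bases before the start codon, the start codon with the next base in capitals, and 14 further bases, from GENCODE M21 on GRCm38.
Rps15: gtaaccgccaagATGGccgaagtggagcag
Hspd1: cgccccgcagaaATGCttcgactacccaca
Sec61b: ttaggcatcagcATGCcgggtccaacgccc
Dynll2: tgacgtgtcacgATGTctgaccggaaggca
Apln: ccgagttgcagcATGAatctgaggctctgc
Eif4ebp2: cgcgtcggagccATGTccgcgtcggccggt
Pnrc2: aagaagctgaagATGGgtggcggagagagg
The upper lines, from Rps15 to Sec61b, belong to genes higher with DMDA-PatA and the others to genes lower with it. Hist1h2bl, which also leads, has a listed 5' UTR of 0 nt and no context to show.

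Over 8027 members with a context, the base after the ATG was G in 62.0% of the 1535 coding sequences higher with DMDA-PatA, in 49.1% of the 1871 lower ones and in 53.6% of the 4621 not called. With the trend on coding length removed, the shares were 63.7%, 48.2% and 53.2%. An A at this place was found in 13.7%, 20.1% and 19.5%. A purine 3 bases before the ATG, the other main base of a favourable start context, varied less, with 89.8%, 87.5% and 86.4%. Members with G after the ATG had a median difference of 0.06 (0.09 and 0.06 in the library pairs, n = 4347), those with A of -0.17 (-0.11 and -0.18, n = 1487).

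The second codon gave a wider range. With GCG, an alanine codon, the median difference was 0.20 in 1035 members and 0.27 after removal of the length trend, with 0.21 in both pairs. With the proline codons CCC and CCT it was -0.42 in 135 and in 101 members, and with the glycine codon GGA -0.39 in 100 members, and these became -0.23, -0.29 and -0.36 after the removal. The highest median among codons of at least 100 members, 0.23 with the arginine codon AGG in 110 members, became 0.06. For CCC and CCT the harringtonine side stood above the median member, by 0.26 and 0.28, while DMDA-PatA stood at -0.04 and -0.09. For GCG the DMDA-PatA side was above it by 0.29, with harringtonine at -0.02. These are descriptions with no test, and codons share base composition with the 5' UTR.

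Among the leading coding sequences higher with DMDA-PatA were mitochondrial and secretory proteins and subunits of the ribosome. Ribosomal and secreted proteins were also among the leading lower ones, with Rpl27, Apln and Crispld2. Rps15, a small subunit protein on chromosome 10 (80292453 to 80294114 on GRCm38), held 19 and 12 reads with harringtonine and 100 and 133 with DMDA-PatA, against 1195 and 1279 in control. With harringtonine it thus lay below the median member of 73 and 62 reads, although its control reads were above the median. The scaled difference was 3.99 (standard error 0.27, adjusted p = 5.28e-09 in edgeR).

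Hspd1, the mitochondrial chaperonin on chromosome 1 (55077835 to 55088024), had 40 reads in each harringtonine library and 171 and 252 with DMDA-PatA, from 1544 and 1556 in control. Its difference was 3.47 (standard error 0.23, adjusted p = 5.28e-09 in edgeR). Krt8, a keratin of simple epithelia, went from 1880 and 2735 control reads to 40 and 45 with harringtonine and 134 and 269 with DMDA-PatA, a difference of 3.30 (standard error 0.30). For both genes each DMDA-PatA library held more reads than either harringtonine library, whereas the median member held fewer reads with DMDA-PatA than with harringtonine.

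Sec61b, a subunit of the channel for proteins entering the endoplasmic reticulum, had 31 and 25 reads with DMDA-PatA and 9 and 3 with harringtonine. Rplp2, of the ribosomal stalk, had 162 and 133 against 15 and 48, with differences of 4.69 and 2.32 in the library pairs. A2m, a secreted protease inhibitor, kept 38 and 45 of its 157 and 103 control reads with DMDA-PatA and 13 and 5 with harringtonine. Rpl14 of the large subunit, the ubiquitin ligase subunit Rbx1 and the complex I subunit Ndufs8 had differences of 3.13, 3.10 and 3.08. In all of these genes the DMDA-PatA reads lay above the harringtonine reads in every library. Choosing the largest differences with the same direction in both library pairs favours this, so nothing is read from it.

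Hist1h2bl, a replication-dependent histone H2B gene, had the largest difference in this direction among genes with at least 20 reads in each DMDA-PatA library, 4.15 (standard error 0.45), from 30 and 47 reads with DMDA-PatA and 2 and 7 with harringtonine. Its near-identical copy Hist1h2br went the other way by -3.49, with 43 and 97 reads against 1552 and 1694. Reads that match several places were left out by the authors, so only the parts in which the copies differ were counted, and the values of single histone genes are uncertain. The same limit holds for ribosomal protein genes with processed copies elsewhere in the genome.

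**Figure D2:**
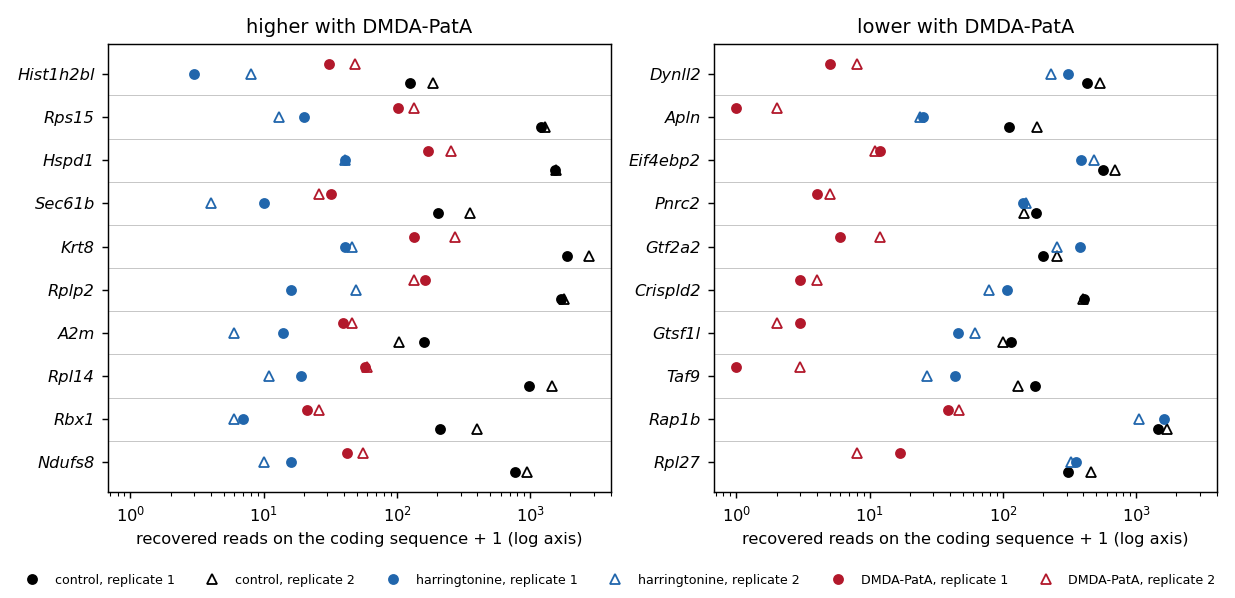
Recovered reads plus 1 on the coding sequence are shown on a log axis for each library of the 10 genes with the largest difference in each direction, among those with at least 20 reads in each library of the higher drug, with filled circles for replicate 1 and open triangles for replicate 2. On the left the DMDA-PatA reads lie above the harringtonine reads, and on the right the harringtonine reads lie near the control reads for Dynll2, Eif4ebp2, Pnrc2, Gtf2a2, Rap1b and Rpl27. The reads are not scaled between libraries.

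Of the 10 leading coding sequences lower with DMDA-PatA, 7 held more harringtonine reads than the median member in both libraries. Choosing the largest differences with at least 20 reads in each harringtonine library favours this, so nothing is read from this count. Dynll2, a light chain of dynein on chromosome 11 (87979525 to 87987533), held 307 and 228 reads with harringtonine, 426 and 535 in control, and 4 and 7 with DMDA-PatA. The difference was -4.51 (standard error 0.31, adjusted p = 5.36e-09 in edgeR). Eif4ebp2, which keeps the cap-binding protein from its scaffold, had 385 and 477 reads with harringtonine and 11 and 10 with DMDA-PatA, a difference of -4.29 (standard error 0.29). In both genes harringtonine reads were several times those of the median member, and DMDA-PatA reads were below it, which the same choice favours.

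Gtf2a2, a subunit of the general transcription factor TFIIA, had 374 and 255 reads with harringtonine, 199 and 252 in control and 5 and 11 with DMDA-PatA. These reads are not scaled between libraries, and on the deposited scale Gtf2a2 was not above control in both library pairs. Its difference was -4.20 (standard error 0.31). Pnrc2, a cofactor of mRNA decapping, kept 141 and 147 reads with harringtonine and 3 and 4 with DMDA-PatA. Rap1b, a small GTPase with the close relative Rap1a, had 1611 and 1049 against 38 and 46, and Rpl27, of the large subunit, 352 and 322 against 16 and 7. Their differences were -4.28, -3.89 and -3.79.

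Few or no reads were left with DMDA-PatA on 3 others. Apln, the peptide hormone apelin, had 0 and 1 reads against 24 and 23 with harringtonine, Taf9, of TFIID, 0 and 2 against 43 and 26, and Gtsf1l 2 and 1 against 45 and 61. From the summed reads harringtonine was 22.2 fold above DMDA-PatA for Apln (95% exact interval 3.80 to 896, counting error only), 16.3 fold for Taf9 (4.35 to 137) and 16.7 fold for Gtsf1l (5.56 to 82.3), after scaling. Without DMDA-PatA replicate 1 or 2 Apln no longer passed the test (adjusted p = 0.0809 and 0.0528 in edgeR), nor with the trend on coding length removed (-3.25, adjusted p = 0.0570). Crispld2, a secreted protein, had 2 and 3 reads against 106 and 78, out of 402 and 397 in control.

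On the deposited scale, 48 members had more coding footprints with harringtonine than in control in both library pairs, 0.563% of the members against 0.943% of the 12298 coding transcripts tested. With the factors of the drugs exchanged the number was 39. With DMDA-PatA it was 0 of 8532 in either order, and 5 (0.0407%) of the coding transcripts tested. Of the 48, 21 were replication-dependent histones. A total of 45 were among the coding sequences lower with DMDA-PatA, beside 23.3% of all members, but they were chosen for high harringtonine values, which enter that difference, and nothing is read from this count. Their coding sequences were at most 1032 nt long, with a median of 390.0 nt.

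Differences followed coding length. The median scaled difference rose in order over the length groups, from -1.19 in 177 members with up to 300 nt and -0.71 in 888 with up to 600 nt to 0.49 in 603 members with up to 8000 nt and 0.91 in 112 longer ones. The values in the library pairs were -1.22 and -1.20 for the shortest group and 0.94 and 1.04 for the longest. In the shortest group 61.6% were lower and 8.47% higher with DMDA-PatA, in the longest 0.893% and 60.7%, beside 23.3% and 19.5% of all members. Against control and relative to the median member, the shortest group stood at 2.05 with harringtonine and 0.83 with DMDA-PatA, and the longest at -0.57 and 0.31.

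Without DMDA-PatA replicate 2 the calls higher with the drug fell from 15 to 7 in the shortest group, from 85 to 53 in the group up to 600 nt, from 197 to 100 in the group up to 1000 nt and from 596 to 359 in the group up to 2000 nt. In the group up to 2000 nt the calls lower with DMDA-PatA fell from 677 to 434, and in that up to 4000 nt from 224 to 120. Without DMDA-PatA replicate 1 the calls higher fell from 15 to 9 in the shortest group and from 201 to 120 in that up to 8000 nt. The medians of the shortest and longest groups stayed between -1.35 and -1.15 and between 0.80 and 1.08 with any 1 of the 4 drug libraries left out. To describe genes beyond this trend, a smooth trend on coding length was removed from each library. Then 1630 members were higher and 1682 lower with DMDA-PatA (19.1% and 19.7%, beside 15.4% and 14.8% of all features tested).

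After removal of the trend the length of the 5' UTR still went with the difference. The medians were 0.42 in 184 members with a 5' UTR of up to 10 nt, 0.50 in 311 of up to 25 nt, 0.42 in 686 of up to 50 nt and 0.21 in 1459 of up to 100 nt, each group starting where the one before ended. In the group up to 200 nt it was -0.12 and in that up to 300 nt -0.21, with -0.16 and -0.23 in the pairs, and above 1000 nt it was -0.11. In the group up to 25 nt, 42.4% were higher and 8.04% lower with DMDA-PatA, and in that up to 300 nt 12.9% and 24.5%. Without the histones, whose listed 5' UTRs are short, the medians of the groups up to 50 nt were 0.38, 0.51 and 0.45. Listed 5' UTR ends may not be the ends used in these cells.

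**Figure D3:**
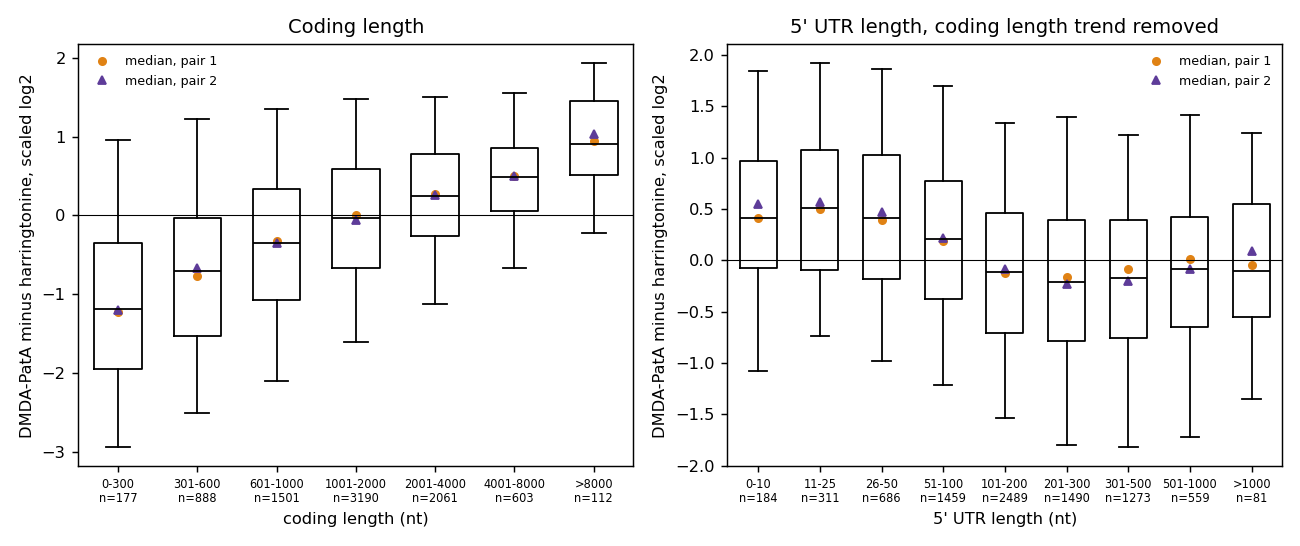
Boxes give the scaled log2 difference, DMDA-PatA minus harringtonine, by coding length on the left and, with the coding length trend removed, by 5' UTR length on the right (box from the 25th to the 75th percentile, whiskers at the 5th and 95th), with the medians of both library pairs as points. The median goes from -1.19 to 0.91 over the coding length groups and is above 0 for 5' UTRs of up to 100 nt.

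The ratio of control footprints to transcriptome reads moved with the difference too. With the members cut by this ratio into 5 groups of equal size, the median was 0.36 in the lowest and -0.55 in the highest, where 45.5% were lower with DMDA-PatA. With the length trend removed these became 0.09 and -0.18, as the median coding length was 2577.0 nt in the lowest group and 810.0 nt in the highest. Control footprints enter both the ratio and the choice of members, and the ratio's own part was not tested.

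Counts in the gene lists below stand beside 19.5% higher and 23.3% lower among all members. With the length trend removed these shares were 19.1% and 19.7%. The ribosomal proteins, parts of the translation machinery with short mRNAs that begin with a pyrimidine tract, split in both directions. Of 35 cytosolic members out of 79 listed, 14 were higher and 12 lower with DMDA-PatA, with a median of 0.34 that became -0.18 without DMDA-PatA replicate 2. Rpl8, with the most control footprints, did not pass the test, with 1992 and 2163 reads against 4366 and 5709 with harringtonine (-0.22, adjusted p = 0.478). Rpl26 had 7 and 8 reads against 1 and 0, a ratio of 31.7 with a counting interval of 4.88 to 1336. With the length trend removed 19 were higher and 9 lower, with a median of 1.02.

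The mitochondrial ribosomal proteins, which build the ribosome of that organelle, had 26 of 69 members higher and 16 lower with DMDA-PatA. Those higher and lower made up 37.7% and 23.2%, beside 19.5% and 23.3% of all members. Leaving out DMDA-PatA replicate 2 left 16 higher. Mrpl44 had 233 and 323 reads against 80 and 116 with harringtonine (2.56, standard error 0.24), Mrpl15 246 and 276 against 361 and 265 (0.83), and Mrpl55 13 and 11 against 194 and 130 (-2.66). Once the length trend was removed, 37 were higher and 7 lower, with a median of 0.67 in the fit and in both library pairs.

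Subunits of the respiratory chain and the ATP synthase gave 19 of 67 higher and 21 lower, and 10 higher without DMDA-PatA replicate 2. Those higher and lower made up 28.4% and 31.3%, beside 19.5% and 23.3% of all members. The list's median of -0.07 changed sign without DMDA-PatA replicate 1 or harringtonine replicate 2, with 0.05 and 0.12. With the length trend removed it was 0.60, with 33 higher and 11 lower. Atp5b, the catalytic subunit of the synthase, did not pass the test at 0.24, and Ndufa1, a small complex I subunit, was at -2.49 with 39 and 55 reads against 689 and 434.

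TOP mRNAs outside the ribosome, which share the pyrimidine start of ribosomal protein mRNAs, had 4 of 16 members higher and 9 lower, with a median of -0.89. Tpt1, a small tumour-associated protein, had 18 and 24 reads with DMDA-PatA and 366 and 344 with harringtonine (-3.01 and -2.96 in the library pairs). Rack1, a scaffold on the small subunit, was at -0.74 from 1619 and 1867 against 6695 and 5644 reads, whereas Eif3h, of the initiation factor eIF3, was at 2.16 from 113 and 167 against 79 and 53. Without DMDA-PatA replicate 2 Rack1 missed the threshold (adjusted p = 0.0502 in edgeR). With the length trend removed 4 were higher and 8 lower, and Rack1 at -0.50 did not pass (adjusted p = 0.0638 in edgeR).

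Among eIF4F and its cofactors, the machinery that DMDA-PatA acts on, 2 of 13 members were higher and 6 lower with it. Eif4b, which stimulates eIF4A, held 442 and 541 reads with DMDA-PatA and 181 and 148 with harringtonine (2.66, standard error 0.20). The scaffold Eif4g1 had 273 and 267 against 419 and 359 (0.56, adjusted p = 0.0402 in edgeR). It no longer passed with any 1 of the 4 drug libraries left out, with an adjusted p of 0.0662 to 0.215, nor with the length trend removed (0.10, adjusted p = 0.753 in edgeR). The 2 higher fell to 1 without DMDA-PatA replicate 1, DMDA-PatA replicate 2 or harringtonine replicate 1. The lowest was Eif4ebp2, described above.

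The replication-dependent histones, intronless genes used during DNA synthesis, had 28 of 50 members lower and 7 higher with DMDA-PatA, with a median of -0.77. Its median was -0.03 with the length trend removed, with 10 lower and 15 higher. Relative to the median member the group stood above control with both drugs, by 3.25 with harringtonine and 2.49 with DMDA-PatA. Hist1h1a, the member with the most control footprints, had 3485 and 5110 reads with DMDA-PatA and 15835 and 10522 with harringtonine, and its difference of -0.53 missed the threshold (edgeR adjusted p = 0.0757) but passed it without harringtonine replicate 2 (adjusted p = 0.0430).

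Of 24 pluripotency factors, 9 were lower with DMDA-PatA and 2 higher. Pou5f1, the Oct4 protein, had 815 and 1086 reads with DMDA-PatA and 548 and 536 with harringtonine, from 4584 and 6351 in control. Its difference of 1.88 (standard error 0.21) was the highest of the list. The lowest was Mycn, of the Myc family, with 75 and 91 against 818 and 711 reads (-2.13, standard error 0.21). Dppa5a, an RNA-binding protein of these cells, was at -1.47 from 1333 and 1607 against 8674 and 8448 reads.

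Of 27 immediate early and feedback genes, 12 were lower with DMDA-PatA and 0 higher in edgeR, limma and DESeq2. At an unadjusted p under 0.05, 1 was higher in edgeR and in limma and 0 in DESeq2. Jun had 14 and 23 reads with DMDA-PatA and 377 and 276 with harringtonine, a difference of -3.06 (standard error 0.25). Mcl1, a survival factor of the Bcl2 family, and Jund were at 0.19 and 0.48, short of the threshold, which Jund passed without harringtonine replicate 2 (adjusted p = 0.0318 in edgeR). The median of the list was -0.62. With the length trend removed it was -0.14, with 3 higher and 11 lower in edgeR and in DESeq2, and Jund passed at 0.69 (adjusted p = 0.0191 in edgeR).

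Of 10 uORF mRNAs of the integrated stress response, 3 were lower and 0 higher in edgeR and in DESeq2, and 4 lower and 0 higher in limma, with 0 higher also at an unadjusted p under 0.05. In edgeR these were 30% lower and 0% higher, beside 23.3% and 19.5% of all members. Without DMDA-PatA replicate 2, 1 was lower in edgeR. Atf4, its main transcription factor, had 49 and 47 reads against 94 and 54 with harringtonine (0.47, adjusted p = 0.254 in edgeR). Eprs, a tRNA synthetase, had 308 and 349 against 650 and 674 (0.06, adjusted p = 0.869), and Asnsd1 was at -1.04 (adjusted p = 0.0610). With the length trend removed Asnsd1 passed the test (-1.14, adjusted p = 0.0438 in edgeR). Among 3 polyamine genes, Azin1, an inhibitor of the antizyme, and the spermidine synthase Srm were lower, at -1.98 and -1.20. Higher were 0 of 3 in edgeR, limma and DESeq2, also unadjusted. Odc1, the rate-limiting enzyme, had 1 and 5 reads against 4 and 6 (0.34, adjusted p = 0.792), and a difference was not detectable at this depth.

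Extracellular matrix and very large proteins stood at the other end. Of 18 basement membrane and matrix genes, 15 were higher with DMDA-PatA and 0 lower in edgeR, limma and DESeq2, with 0 lower also at an unadjusted p under 0.05. The median was 1.25 (1.19 and 1.31 in the pairs), and 13 to 15 were higher when any 1 drug library was left out. Nid1, which links laminin and collagen, had 330 and 583 reads against 200 and 181 with harringtonine (2.32, standard error 0.22), and fibronectin (Fn1) 2058 and 2706 against 2764 and 2356 (0.97). Sparc, a short matrix protein, did not pass the test at -0.33. Once the length trend was removed, 10 were higher and 0 lower in edgeR (9 and 0 in DESeq2, and 0 lower unadjusted), with a median of 0.64, and Fn1 at 0.30 no longer passed (adjusted p = 0.284 in edgeR). The median coding length of the list was 5730.0 nt.

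The cytoskeletal and scaffold giants, with a median coding length of 11612 nt, had 22 of 32 members higher and 1 lower, with a median of 1.02. Removal of the length trend left 8 higher and 5 lower and a median of 0.12. Ubr4, a ubiquitin ligase, had 1759 and 1531 reads against 1003 and 717 with harringtonine (2.04, standard error 0.21). The nonmuscle myosin Myh9 was at -0.15 (adjusted p = 0.586 in edgeR) but passed as lower with the length trend removed (-0.69, adjusted p = 0.00727 in edgeR). Myh10, whose listed coding sequence has 693 nt, was the 1 gene lower before this removal, at -1.22.

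Among the remaining lists the proteasome, which degrades tagged proteins, had 18 of 45 members lower and 7 higher (4 higher without DMDA-PatA replicate 2). Psmd12 was at -0.88, Psme3 at -1.37 and Psmb5 at 1.92, with adjusted p of 0.00112, 7.94e-05 and 0.00723 in edgeR. Psmb5 no longer passed without DMDA-PatA replicate 2 or harringtonine replicate 1 (adjusted p = 0.0976 and 0.0650 in edgeR). For cyclins and Cdks 10 of 30 were lower and 3 higher (1 higher without harringtonine replicate 1). Ccnd1, the D-type cyclin, had 89 and 145 reads against 1169 and 1426 (-2.42, standard error 0.24), Cdk1 was at -0.57, and Ccnb1 at 1.96 with pair values of 3.23 and 0.57. Cdk1 no longer passed with any 1 of the 4 drug libraries left out (adjusted p from 0.0702 to 0.189 in edgeR), and Ccnb1 not without DMDA-PatA replicate 1 or harringtonine replicate 1 (0.430 and 0.235). Cdk1 with the length trend removed was at -0.29 and did not pass (adjusted p = 0.284 in edgeR).

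Chaperones of the CCT and heat shock families had 6 of 26 higher and 8 lower (5 lower without DMDA-PatA replicate 2). Those higher and lower made up 23.1% and 30.8%, beside 19.5% and 23.3% of all members. Hspd1 led the higher ones, and Dnaja1 at -1.66 did not pass the test. Hsp90ab1, with the most control footprints of the list, was at 0.93 from 1631 and 2162 against 2140 and 2042 reads. Of 11 selenoproteins, which read UGA as selenocysteine, 3 were higher, among them Selenon at 2.00, and 2 lower, among them Selenot at -1.92, and Txnrd1 at 0.12 did not pass. The higher and lower selenoproteins were 27.3% and 18.2% of the list, close to the shares of all members. The 2 lower fell to 1 without DMDA-PatA replicate 1, DMDA-PatA replicate 2 or harringtonine replicate 2. The list's median of -0.22 was 0.000764 without DMDA-PatA replicate 1 and 0.05 without harringtonine replicate 2.

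The 2 large families lay close to the share of all members or under it. Of 145 Zfp zinc finger genes 18 were higher and 23 lower (10 and 15 without DMDA-PatA replicate 2, and 11 higher without DMDA-PatA replicate 1 or harringtonine replicate 1), with a median of -0.09 that was 0.03 without DMDA-PatA replicate 2. Zfp42 was at -0.61, Zfp87 at 3.01 and Zfp428 at -3.04. Zfp42 no longer passed without DMDA-PatA replicate 2, harringtonine replicate 1 or harringtonine replicate 2 (adjusted p = 0.353, 0.0747 and 0.0651 in edgeR), nor with the length trend removed (-0.31, adjusted p = 0.305). Of 140 solute carriers 23 were higher and 20 lower (15 and 13 without DMDA-PatA replicate 2), with a median of -0.01 that was 0.09 and 0.00693 without harringtonine replicate 1 or 2. The glucose transporter Slc2a3 was at 1.15 from 1036 and 1331 against 1178 and 1070 reads, and Slc15a1, a peptide transporter, at 2.24. Slc10a3 had 1 and 0 reads with DMDA-PatA against 12 and 7, a ratio of 8.98 with a counting interval of 1.43 to 373 in favour of harringtonine, and it no longer passed without DMDA-PatA replicate 2 or harringtonine replicate 1 (adjusted p = 0.248 and 0.123 in edgeR).

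**Figure D4:**
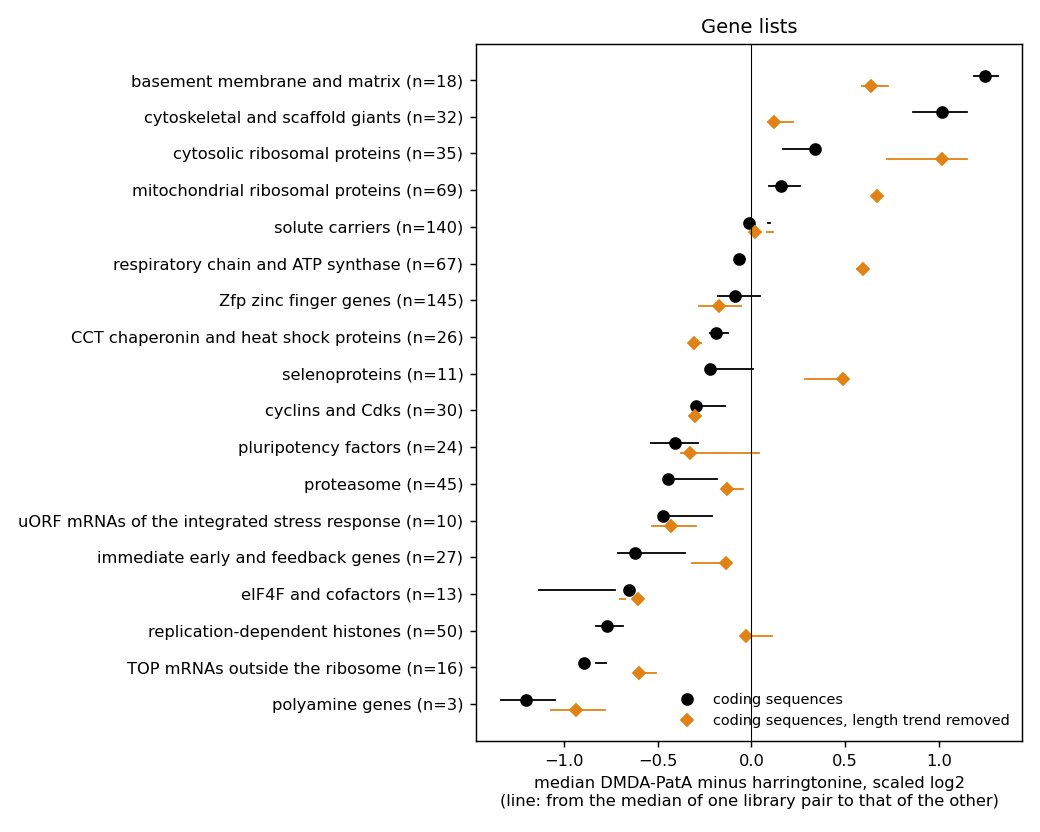
For each of 18 gene lists the circle gives the median scaled log2 difference, DMDA-PatA minus harringtonine, and the diamond the same with the coding length trend removed, with a line between the medians of the 2 library pairs. Matrix genes have the highest median (1.25) and polyamine genes the lowest (-1.20), and removal of the length trend moves cytosolic ribosomal proteins from 0.34 to 1.02 and histones from -0.77 to -0.03.

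The lists and length groups are described by counts and medians beside those of all members, of which 19.5% were higher and 23.3% lower, and no list was tested as a set.

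The 5' UTR held 36.5% and 36.9% of the members' reads with DMDA-PatA, 27.6% and 31.3% with harringtonine and 3.69% and 3.95% in control. These shares also rise when coding sequences empty. As counts, 5' UTRs held 358250 and 439946 reads with DMDA-PatA, 740380 and 760293 with harringtonine and 344779 and 431278 in control. These are recovered reads, not scaled for depth or spike-in, so they do not compare footprint levels between conditions. For the 5' UTR each library was scaled to the median of the 5' UTRs with at least 10 mean control reads. Of 5421 members tested, 1180 were higher with DMDA-PatA and 746 lower, beside 20.1% and 13.3% of all 6647 features tested. On the deposited scale with the median not removed the split was 245 to 2895. On the deposited values 2280 of 3862 5' UTRs with at least 10 mean control reads (59.0%, beside 64.6% of 6497 tested) were above control in both pairs with harringtonine and 732 (19.0%, beside 28.6%) with DMDA-PatA, or 1954 and 1008 with the factors exchanged. Since a 5' UTR could enter through the drug that filled it, these counts are not read as shares. Among the 3862 with at least 10 mean control reads, a filter that uses no drug library, 720 were higher and 594 lower.

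Several of the leading 5' UTRs were nearly empty in control and with harringtonine and filled with DMDA-PatA. Ier3, an immediate early gene with a 5' UTR of 35 nt, had 2 reads in each control library, 0 and 2 with harringtonine and 247 and 246 with DMDA-PatA. The ratio was 554 fold after scaling (counting interval 153 to 4588). Its coding sequence, with 70 and 105 reads against 306 and 244, lay at -0.58 and did not pass the test. Vps16, of the endosomal tethering complexes, had 130 and 194 5' UTR reads with DMDA-PatA and 0 and 2 with harringtonine (364 fold, interval 100 to 3020).

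Id3, an inhibitor of helix-loop-helix factors, had 386 and 314 5' UTR reads with DMDA-PatA, 11 and 5 with harringtonine and 6 and 1 in control, a difference of 6.61 (standard error 0.45). Eci2, of fatty acid oxidation, had 27 and 26 against 0 and 0, so that DMDA-PatA was at least 39.7 fold higher, with the floor set at 3 reads over the harringtonine libraries. Hist1h3a had 47 and 79 against 1 and 0 (283 fold, interval 49.9 to 11274) and Adat2, of tRNA editing, 34 and 58 against 0 and 1 (207 fold, interval 36.2 to 8255). For all 6 genes the DMDA-PatA reads lay above those of every control and harringtonine library, and all 6 passed the filter on low counts only through DMDA-PatA.

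In the other direction, reads stood before the start codon with harringtonine and were nearly gone with DMDA-PatA. Dbf4, the activator of a replication kinase, had 104 and 119 5' UTR reads with harringtonine, 19 and 7 in control and 2 and 3 with DMDA-PatA (-4.26, standard error 0.57). Glmn had 26 and 27 against 0 and 0, so that DMDA-PatA was at least 7.86 fold lower, with the same floor. Hook1, a dynein adaptor, had 49 and 69 against 0 and 1 (52.5 fold, interval 9.24 to 2091). Lrrc58 with 25 and 28 against 0 and 1 and the transcription factor Mlxip with 22 and 28 against 0 and 1 had ratios of 23.6 (4.05 to 949) and 22.2 (3.81 to 896). Except for Dbf4 these 5' UTRs held at most 5 reads in a control library and passed the filter on low counts only through harringtonine.

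Within each library the ratio of 5' UTR to coding reads needs no scaling between libraries. It was higher with DMDA-PatA in 1337 of 5421 members and lower in 667, beside 22.4% and 11.2% of all 6497 features tested. Among the 3862 with at least 10 mean control 5' UTR reads, 872 were higher and 494 lower, with a median of 0.18 (0.21 and 0.15 in the pairs). By coding length this median went from 1.82 in 95 members of up to 300 nt to -0.71 in 48 members over 8000 nt. In the same members the median difference on the 5' UTR was 0.30 and 0.16. Coding reads, whose difference followed coding length, enter this ratio. Without DMDA-PatA replicate 1, DMDA-PatA replicate 2 or harringtonine replicate 2, the 667 fell to 347, 424 and 437, and the 1337 fell to 891 without DMDA-PatA replicate 2.

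**Figure D5:**
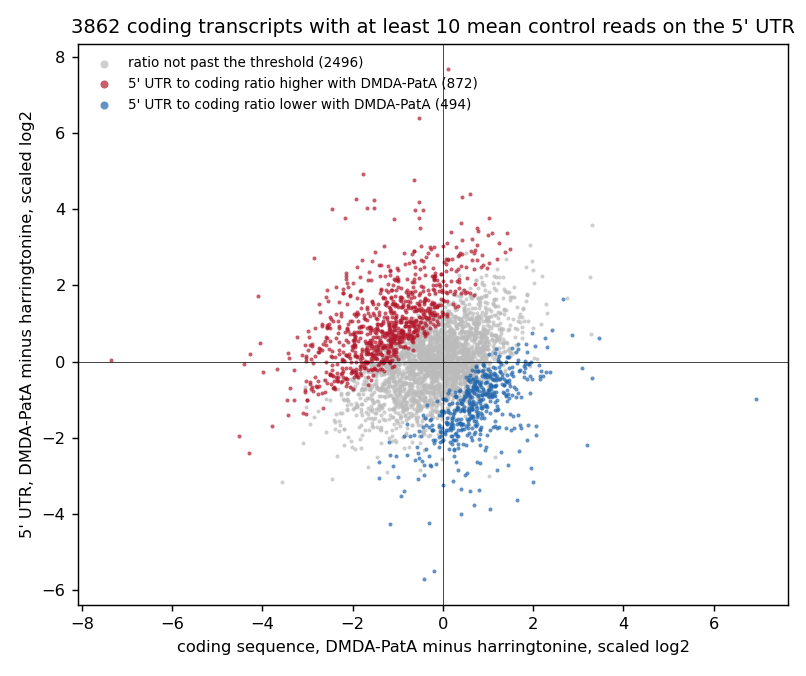
For 3862 members with at least 10 mean control reads on the 5' UTR, the scaled log2 difference on the coding sequence (x axis) is plotted against that on the 5' UTR (y axis). Colours mark the 872 members whose ratio of 5' UTR to coding reads was higher with DMDA-PatA and the 494 whose ratio was lower.

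The ratio was led by Eci2, Ier3, Hist1h3a, Vps16 and Adat2, given above, and by Hist1h2ad. The Hist1h2ad 5' UTR had 322 and 243 reads with DMDA-PatA, 5 and 9 with harringtonine and 0 and 4 in control. Its coding sequence had 859 and 651 with DMDA-PatA against 5502 and 4658 with harringtonine. Among the control, harringtonine and DMDA-PatA libraries, only those with DMDA-PatA reached the filter on low counts for this 5' UTR. The same limit is given above for the other leaders. Among the lowest ratios were those of Glmn and of 4 other genes. The listed Rps20 transcript had 5428 and 9098 5' UTR reads with harringtonine but 9 and 21 on its coding sequence, and 256 and 482 against 32 and 25 with DMDA-PatA (-5.32, standard error 0.51). Ass1, of the urea cycle, had 239 and 294 against 1 and 1 with harringtonine and 21 and 31 against 5 and 4 with DMDA-PatA. R3hdm2 had 85 and 58 against 22 and 4 with harringtonine and 1 and 4 against 19 and 19 with DMDA-PatA, and Cbx3, a heterochromatin protein, 57 and 100 against 0 and 0 and 6 and 30 against 3 and 3. An annotated start codon of another transcript of the same gene lay in the listed 5' UTR of 103 of 8167 members (1.26%) in GENCODE M21, and of 0 of the 17 genes that lead by their 5' UTR or ratio.

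Histones had the highest median difference on the 5' UTR among the 18 lists. Of the 11 histones with at least 10 mean control 5' UTR reads, 11 were higher in edgeR, limma and DESeq2 with DMDA-PatA on the 5' UTR, with a median of 3.74 (3.63 and 3.57 in the pairs), beside 720 of 3862 members and a median of 0.03. Respiratory chain genes had 15 of 31 higher and 3 lower (median 0.81) and matrix genes 8 of 12 higher and 0 lower in edgeR (7 and 0 in limma, 5 and 0 in DESeq2, and 0 lower unadjusted), with a median of 1.16. Among pluripotency factors 2 of 14 were higher and 5 lower. By 5' UTR length the median was 1.48 in 25 members of over 25 and up to 50 nt, or 0.73 in 20 without histones, 0.51 in 230 of up to 100 nt, and -0.08 in the group of over 200 and up to 300 nt. As the last 10 nt before the start codon were not counted to the 5' UTR, short 5' UTRs were measured on few bases.

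With the coding length trend removed, Hist1h2bl, Rps15, Sec61b, Rplp2 and Rbx1 led the genes higher with DMDA-PatA, at 4.96, 4.72, 4.29, 4.18 and 4.01. The lower ones were led by Crispld2 at -4.09 and Pnrc2 at -3.52, with Taf9, whose reads are given above. New in this group were Cnot4, of the deadenylase complex, with 5 and 6 reads against 144 and 111 with harringtonine (-3.50, standard error 0.35), and Utp15, of ribosome biogenesis, with 31 and 13 against 567 and 462 (-3.47, standard error 0.28). In both the harringtonine reads were above those of the median member and the DMDA-PatA reads at or below it, except in replicate 1 of Utp15. The choice of the largest differences favours this, so nothing is read from it.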

How the data were processed

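Per the labels and the study's methods, SOLiD reads of ribosome footprints were aligned to mm10 (GRCm38) by the authors, reads with multiple matches were left out, P-site positions were counted on the 5' UTR, ORF and 3' UTR of each transcript, and the libraries were scaled to spike-in reads. Picard 1.38 is named in the submitters' processing notes. The deposited values are such normalized signal values. In each footprint library they are whole reads times 1 factor, and these reads were recovered and tested, as tests had been planned for read numbers. The last 10 nt of a 5' UTR hold no counted reads, and transcripts whose ORF starts at position 10 or before have no 5' UTR value. Groups and replicate numbers come from the labels.

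Each library was scaled by the median log2 ratio of its reads to the control mean over members, for 5' UTRs over those with at least 10 mean control reads. edgeR 4.0.16 (quasi-likelihood test, R 4.3.3, limma 3.58.1) was fitted to the 8 footprint libraries with condition as the term, for features that reached 10 reads in 2 or more libraries, with Benjamini-Hochberg adjustment over all features tested and an adjusted p of 0.05. The ratio of 5' UTR to coding reads was tested as an interaction of region and condition with the library as a block, and the length trend was a lowess curve with a span of 0.3. Standard errors follow from the test statistic. Counting intervals are exact at 95%, and read numbers cover counting error only. DESeq2 1.42.0, limma, other scalings, filters and libraries left out were alternatives. Tested on simulated reads for the coding comparison (12499 features), the fit recovered 41.8% of log2 changes of 1, 91.0% of changes of 2 and 93.9% of changes of 3, and called 10 of 12128 unchanged features. Other steps used Python 3.11.15, pandas 2.3.3, scipy 1.17.1 and matplotlib 3.10.9.

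Genes named are the 10, 6, 6 and 5 members with the largest change in each direction on coding sequences, 5' UTRs, their ratio and length-corrected coding sequences, among those past the threshold, with the same direction in both same-numbered pairs and at least 20 reads in each library of the higher drug. From each gene list come the member with the most control footprints and those with the highest and lowest difference. One gene that this rule names is not reported here. Members, lists and tests were chosen with earlier results of these data known. Symbols, positions and start codons come from GENCODE M21, in which 8167 members (95.7%) had the listed coding length.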

Additional observations from a re-analysis of the deposited data

Results flagged for a closer look

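The 3' UTR reads were used in no comparison. Their share of the members' reads was 2.38% and 2.13% in the DMDA-PatA libraries and 1.99% and 1.73% in the harringtonine libraries, above 0.721% and 0.604% in the control libraries. In the puromycin libraries it was 1.39% and 1.47%. As counts, DMDA-PatA left 23338 and 25373 reads on 3' UTRs and harringtonine 53451 and 41884, against 67443 and 65926 in control. These reads are not scaled for depth or spike-in. The difference in share was not tested.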

How the results depend on the processing

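Over the alternatives other than libraries left out, 822 values of named genes kept their direction and side of the threshold, 21 no longer passed, 9 newly passed and 13 changed sign. With a library left out these numbers were 388, 22, 2 and 4. On coding sequences the deposited factors without removal of the median gave 46 higher and 5098 lower members, with 1 common shift 615 and 918, and a control mean of at least 500 gave 1046 and 1127. The same settings gave 245 and 2895, 746 and 504, and 780 and 439 on 5' UTRs, where 10 reads in each drug library left 472 lower. For the ratio, 10 reads in each drug library left 409 lower, and a control mean of at least 500 left 866 higher and 413 lower. Filters and cutoffs test fewer genes. Chosen after seeing the data, at least 10 mean control 5' UTR reads gave 720 higher and 594 lower 5' UTRs and 872 and 494 ratios. The cause of the effect of the deposited factors beyond the removed median was not tested.

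With 1 drug library left out, the lone library of that drug was taken to vary like the other groups. Coding counts then ran from 1056 to 1407 higher and from 1417 to 1808 lower, 5' UTR counts from 819 to 944 and from 432 to 571, ratio counts from 891 to 1295 and from 347 to 636, and length-corrected counts from 995 to 1446 and from 1016 to 1489. The lowest were without DMDA-PatA replicate 2, except 347 without DMDA-PatA replicate 1. Each of these fits has fewer samples. The number shared by replicates was at most a weak sign of pairing, with a correlation of deviations of 0.0931 between the drugs. It was 0.0914 between control and harringtonine and 0.0910 between control and DMDA-PatA. Between puromycin and the other conditions it ran from -0.0217 to -0.00654. The replicate block gave 1682 and 2011, 1175 and 735, 1322 and 666, and 1631 and 1709.

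Without removal of the median, which lowers all coding differences, genes above 0 turned below it, namely Txnrd1 (-1.25), Hsp90ab1 (-0.37), Atp5b (-1.03), Slc2a3 (-0.16), Mcl1 (-1.10), Eprs (-1.24), Fn1 (-0.35), Jund (-0.80), Atf4 (-0.93), Eif4g1 (-0.80), Mrpl15 (-0.54) and Odc1 (-0.90). Odc1 was also at -0.00390 in limma. With libraries left out, Rpl8 ran from -0.50 to 0.13, Eprs from -0.0833 to 0.21 and Odc1 from -1.13 to 0.98. Depth limits the DMDA-PatA side, where 14.7% and 13.1% of members held under 10 reads.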
